A study of Mus musculus with 4 samples.

Results

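The proteasome genes were taken by symbol from the gene counts of mouse kidney: every protein-coding gene whose symbol starts with Psma, Psmb, Psmc, Psmd, Psme, Psmf or Psmg, with the interferon-inducible catalytic subunits Psmb8, Psmb9 and Psmb10 left out. The rule found 47 genes among the 54532 genes counted, of which 21995 are protein-coding in GENCODE M21. The rule uses no measured value, but it was chosen with earlier results of these data known. By textbook role they comprised 7 alpha-ring and 7 beta-ring subunits of the 20S core, 17 subunits of the 19S regulatory particle, 7 assembly chaperones, 6 activator and inhibitor genes, 2 tissue-restricted 20S subunits, and Psmc3ip, a meiotic recombination factor that shares only the prefix.

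Kidney RNA-Seq compared wild-type (WT) with Zbp1-/- mice, here called ZBP1-KO, in which CRISPR-Cas9 had removed exons 2 to 8 of Zbp1, a sensor of Z-form nucleic acid that can trigger inflammatory cell death. All mice were described as female and were injected intraperitoneally, when 8 weeks old, with 500 µL of pristane, an oil used to bring on a lupus-like disease. Their kidneys were taken after another 8 months. Each genotype had 2 libraries, so the comparison asks what loss of ZBP1 does in pristane-treated kidney, and kidneys without pristane were not analysed here. The WT mice were described as purchased from an animal centre, so genotype and origin of the animals cannot be told apart. The labels number the libraries but do not say how many animals gave each one, and p-values therefore measure only the spread between these 4 libraries.

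The 26S proteasome degrades proteins that carry ubiquitin chains. Its 20S core is a barrel of outer alpha rings and inner beta rings, and the proteolytic sites sit on the subunits encoded by Psmb5, Psmb6 and Psmb7. The 19S particle caps the barrel: its base holds a ring of ATPases (Psmc genes) that unfold substrates, and its lid holds the deubiquitinase PSMD14. Most subunit genes are expressed in every tissue, and under proteasome stress they are raised together by the transcription factor NFE2L1. Under interferon gamma, PSMB8, PSMB9 and PSMB10 take the places of PSMB5, PSMB6 and PSMB7 to form the immunoproteasome, which shapes the peptides shown on MHC class I.

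Libraries held 9878776 to 12921925 counts, of which 49.5% to 61.5% fell on mitochondrially encoded genes. The proteasome genes received 16187 to 23430 counts per library, between 0.395% and 0.411% of all counts outside the mitochondrial genes. Values are given as CPM, in which the counts of a gene are divided by the size of its library, mitochondrial counts included, after a TMM correction for composition. Zbp1 itself was at 7.56 and 10.7 CPM in the WT libraries and at 1.33 and 0 CPM in the ZBP1-KO libraries (18 and 0 counts, where 0 counts allow up to 0.323 CPM), a log2 fold change of -3.64 ± 0.89 (SE). Its adjusted p in edgeR's quasi-likelihood test was 0.999 (2.86e-05 to 1.00 under the alternatives), and its unadjusted p was 0.00153. It was called without ZBP1-KO 1 (adjusted p in edgeR 0.00156, with the remaining knockout library at 0 counts) and without ZBP1-KO 2 (0.0449, log2 fold change -2.78). Proximal tubule markers summed to 8117 to 11070 CPM with no marker at 0. In bulk tissue, fewer cells of a type and less RNA per cell cannot be told apart.

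The proteasome genes showed no difference between ZBP1-KO and WT kidneys that passed the test, and their log2 fold changes lay between -0.55 and 0.42. A total of 44 of the 47 genes had enough counts to be tested. None had an adjusted p under 0.05 in edgeR's quasi-likelihood test with Benjamini-Hochberg adjustment over 14908 genes (0 of 44, against 0.0134% of all genes tested, or 2 genes), and every member's adjusted p was 0.999. At an unadjusted p under 0.05, 0 members were higher and 0 were lower, against 1.91% and 1.97% of all genes tested. None was called by any of the other tests run, namely edgeR's exact and likelihood ratio tests, DESeq2 and limma-voom. The smallest unadjusted p was 0.0706, for Psmb1.

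The size of the differences can be bounded. The lowest log2 fold change (ZBP1-KO over WT) was that of Psmd9 and the highest that of Psma1, with 20 members higher and 24 lower by sign. Their median was -0.022, beside -0.0061 over all genes tested. In 40 of 44 members the 95% interval lay within a 2-fold difference in either direction, against 48.0% of all genes tested. The intervals of Psmd9, Psmg2, Psmg3 and Psmf1 reached past that limit. The width of an interval depends on the counts of a gene, and the 48.0% is not matched for level. The median SE was 0.22 over members, 0.28 over genes in their range of mean CPM and 0.33 over all genes tested without a 0. Genes in that range were not matched to the members for level within it. Both ZBP1-KO libraries lay above both WT libraries for 8 members, against 16.0% of all genes tested, and below them for another 8, against 16.3%. Each of those shares is 18.2% of the tested members, close to the background. ZBP1-KO 1 was the highest of the 4 libraries for 8 members, against 26.5% of all genes tested, and ZBP1-KO 2 was the lowest for 9, against 27.2%.

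The median absolute log2 difference over the members was 0.18 between the WT libraries and 0.16 between the ZBP1-KO libraries, and the median absolute log2 fold change between the fitted group means, each over 2 libraries, was 0.14. A difference between means of 2 libraries is smaller than one between single libraries even where nothing changes, so the last value is not compared with the other two. Over the genes tested with no 0 in any library the same medians were 0.32, 0.39 and 0.23, and over genes within the members' range of mean CPM (5.41 to 96.1) they were 0.26, 0.31 and 0.19. The plot of CPM by library shows how closely the libraries of most subunits lie.

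**Figure D1:**
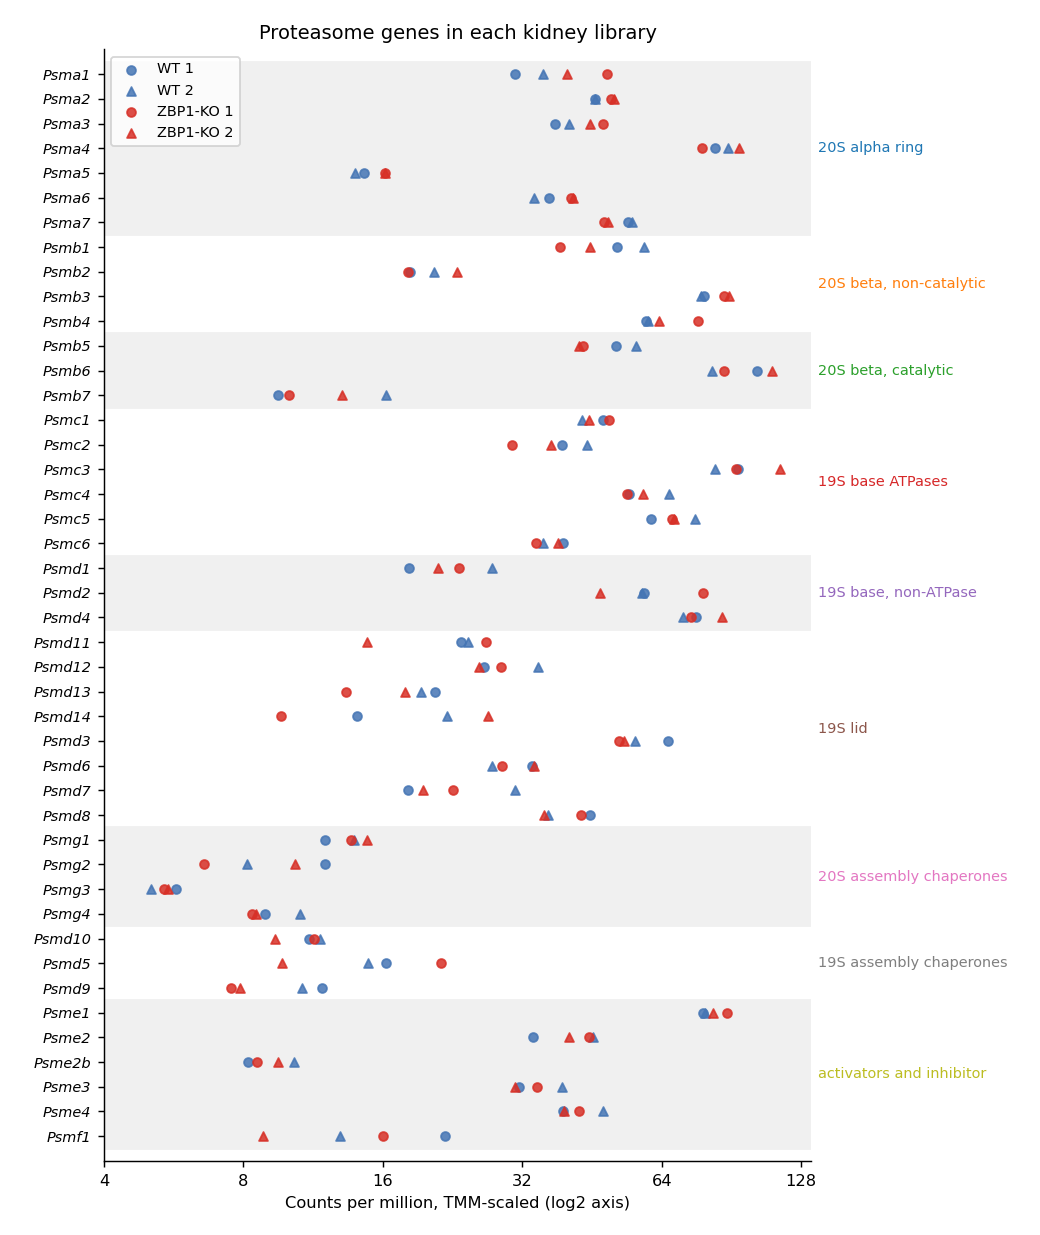
CPM (TMM-scaled, log2 axis) of the 44 tested proteasome genes, 1 row per gene grouped by role, with circles for replicate 1 and triangles for replicate 2 of WT (blue) and ZBP1-KO (red). Points of most genes lie close together, while the ZBP1-KO libraries are far apart for Psmd14 (9.66 and 26.9 CPM) and Psmd5 (21.4 and 9.69 CPM).

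The constitutive catalytic subunits differed in the sign of their fold change, and none passed the test. Psmb5, which carries the chymotrypsin-like site (chr14:54614119-54618022 in GRCm38, minus strand), was at 51.1 and 56.2 CPM in WT and at 43.4 and 42.4 CPM in ZBP1-KO. Both ZBP1-KO libraries lay below both WT libraries, with a log2 fold change of -0.32 ± 0.19 (SE) and a 95% interval of -0.74 to 0.10. Its edgeR unadjusted p was 0.123. The annotated exons of Psmb5 share 12.1% of their bases with Mir686 on the same strand.

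Psmb6, which carries the caspase-like site (chr11:70525367-70527858, plus strand), was at 103 and 82.2 CPM in WT and at 87.4 and 111 CPM in ZBP1-KO. The groups overlapped, and the log2 fold change was 0.098 ± 0.20 (SE). Psmb7, which carries the trypsin-like site (chr2:38588036-38644087, minus strand), was at 9.49 and 16.3 CPM in WT and at 10 and 13 CPM in ZBP1-KO. Per kilobase of exon it was also the lowest of the catalytic subunits, at 3.57 CPM per kilobase on average, and its groups overlapped at a log2 fold change of -0.16 ± 0.35 (SE). Of its exon bases, 11.8% lie opposite Nek6, so reads of the overlap could belong to either gene if strand was not used in counting.

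Sequences upstream of proteasome genes are shown because the factors known to drive proteasome genes and interferon-inducible genes bind there. Windows from 250 bases before to 50 bases after the start of each gene came from RefSeq (GRCm38.p6) and were found for 39 of the 47 members. Psma8, Psmb1, Psmb2, Psmb7, Psmc3, Psmd3, Psmd7 and Psmg2 had no window and were not searched. The core of the antioxidant response element, TGACNNNGC on either strand, is the kind of site bound by NFE2L1 and NFE2L2 with small MAF proteins. It was present in 6 of 39 members (15.4%), namely Psmb5, Psmb6, Psmc6, Psmd12, Psmd9 and Psme4, and in 14.0% of 27025 genes with a window of the same length. CCAAT on either strand was present in 35.9% of the members and 41.1% of all genes. The core of the interferon-stimulated response element, GAAA followed by 2 bases of any kind and GAAA on either strand, was present in 5 members (12.8%), Psmb3, Psmd4, Psmd9, Psme1 and Psmg4, and in 3.99% of all genes. The windows of Psmb8, Psmb9 and Psmb10 held neither the antioxidant nor the interferon-stimulated core. The windows below are written 5′ to 3′ on the strand of the gene, and capitals mark the motifs. The antioxidant response core begins at -47 from the start in Psmb5, at -9 in Psmb6 and at -31 in Psmd9. The interferon-stimulated core begins at -159 in Psmd9 and at 9 in Psme1, where it lies on the opposite strand and so reads as TTTC, 2 bases and TTTC. The GENCODE models of Psmd9 and Psme1 begin upstream of the windows shown, so those windows do not cover that start.
Psmb5 (chr14:54617946-54618245, minus strand): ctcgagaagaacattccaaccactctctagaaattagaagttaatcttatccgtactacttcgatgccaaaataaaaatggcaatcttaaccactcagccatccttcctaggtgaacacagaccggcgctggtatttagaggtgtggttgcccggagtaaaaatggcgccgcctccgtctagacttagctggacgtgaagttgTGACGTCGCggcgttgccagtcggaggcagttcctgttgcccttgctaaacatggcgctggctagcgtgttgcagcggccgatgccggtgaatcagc
Psmb6 (chr11:70525107-70525406, plus strand): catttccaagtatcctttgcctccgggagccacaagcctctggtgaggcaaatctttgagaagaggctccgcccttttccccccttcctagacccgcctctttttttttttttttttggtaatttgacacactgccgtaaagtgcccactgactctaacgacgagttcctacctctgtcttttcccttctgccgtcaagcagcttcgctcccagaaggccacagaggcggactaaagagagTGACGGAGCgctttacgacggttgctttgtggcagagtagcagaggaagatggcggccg
Psmd9 (chr5:123227940-123228239, plus strand): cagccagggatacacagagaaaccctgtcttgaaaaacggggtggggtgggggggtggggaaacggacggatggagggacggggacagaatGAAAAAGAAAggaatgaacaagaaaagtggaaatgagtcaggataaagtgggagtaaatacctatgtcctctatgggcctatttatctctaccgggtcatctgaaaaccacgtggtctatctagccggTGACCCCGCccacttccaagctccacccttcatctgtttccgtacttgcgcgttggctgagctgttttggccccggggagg
Psme1 (chr14:55578244-55578543, plus strand): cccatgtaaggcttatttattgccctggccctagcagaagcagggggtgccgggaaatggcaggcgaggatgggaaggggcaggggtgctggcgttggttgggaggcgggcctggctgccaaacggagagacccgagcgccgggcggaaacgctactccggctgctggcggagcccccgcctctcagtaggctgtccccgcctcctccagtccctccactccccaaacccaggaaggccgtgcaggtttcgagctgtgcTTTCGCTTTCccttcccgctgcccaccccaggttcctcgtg

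These matches describe the letters only. The 4 genes shown are only part of the members with a motif. Psmb5 and Psmd9 had negative log2 fold changes, Psmb6 and Psme1 positive ones. The other members with the antioxidant core, Psmc6, Psmd12 and Psme4, were negative. Of the other members with the interferon-stimulated core, Psmb3 and Psmd4 were positive and Psmg4 negative. None of these genes passed the test, and a link between motif and fold change was not tested.

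The alpha ring, which forms the gate of the barrel, had the most genes with both ZBP1-KO libraries above both WT libraries: 5 of 7, with 1 below and 1 overlapping, where 16.0% of all genes tested lay above. The median log2 fold change of the ring was 0.18, from -0.17 to 0.42, and none of the 7 passed the test even unadjusted. Psma1 was at 30.9 and 35.5 CPM in WT and at 48.8 and 40.0 CPM in ZBP1-KO. This was the largest positive log2 fold change of any member, 0.42 ± 0.21 (SE), with an edgeR unadjusted p of 0.0721. Psma3 was at 37.6 and 40.4 CPM in WT and at 47.7 and 44.8 CPM in ZBP1-KO, a log2 fold change of 0.25 ± 0.20 (SE). Psma2, Psma5 and Psma6 likewise had both ZBP1-KO libraries above WT, with log2 fold changes of 0.13, 0.18 and 0.22. Psma7 was the exception below, at 54.1 and 55.3 CPM in WT and at 48.1 and 49.0 CPM in ZBP1-KO.

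Among the non-catalytic beta subunits, Psmb3 and Psmb4 lay above WT in both ZBP1-KO libraries, Psmb2 overlapped, and Psmb1 lay below. Psmb1 was at 51.3 and 58.6 CPM in WT and at 38.6 and 44.8 CPM in ZBP1-KO. This gave a log2 fold change of -0.40 ± 0.20 (SE) and an interval of -0.84 to 0.04. Over the 14 core genes the median log2 fold change was 0.11, with 7 genes above WT in both ZBP1-KO libraries and 3 below, beside 16.0% and 16.3% of all genes tested.

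The 19S particle had no gene with both ZBP1-KO libraries above both WT libraries (0 of 17), 3 genes below and 14 overlapping, beside 16.0% above and 16.3% below over all genes tested. Its median log2 fold change was -0.042, and the difference between the 20S core and the 19S particle was not tested. Of the base ATPases, Psmc5 had the log2 fold change nearest to 0 (-0.0089 ± 0.19, SE), at 60.7 and 75.6 CPM in WT and at 67.4 and 68.1 CPM in ZBP1-KO. Psmc2 was at 39.0 and 44.1 CPM in WT and at 30.4 and 36.9 CPM in ZBP1-KO, a log2 fold change of -0.31 ± 0.21 (SE). The non-ATPase base genes comprise the scaffolds Psmd1 and Psmd2 and the ubiquitin receptor Psmd4, and all 3 overlapped between genotypes.

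The 8 lid genes had a median log2 fold change of -0.18, from -0.36 to 0.041. Psmd13, a structural lid subunit, was at 20.7 and 19.3 CPM in WT and at 13.3 and 17.9 CPM in ZBP1-KO. Its log2 fold change was -0.36 ± 0.27 (SE), and 10.1% of its exon bases lie opposite Sirt3. Psmd14, the deubiquitinase, was singled out after its values were seen, because its libraries differed most within a genotype. It was at 14.1 and 22.0 CPM in WT and at 9.66 and 26.9 CPM in ZBP1-KO, so that the ZBP1-KO libraries were the lowest and the highest of the 4. The ZBP1-KO libraries of Psmd14 were 1.48 apart on the log2 scale. Its log2 fold change between genotypes was 0.0089 ± 0.41 (SE). It ran from -0.91 without ZBP1-KO 2 to 0.57 without ZBP1-KO 1.

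The assembly chaperones help build the particles and are not part of the finished proteasome. Psmd9, Psmd10 and Psmd5 serve the 19S base. Psmd9 was at 11.8 and 10.7 CPM in WT and at 7.52 and 7.86 CPM in ZBP1-KO, with both ZBP1-KO libraries below WT. It had the largest negative log2 fold change of any member, -0.55 ± 0.34 (SE), with an edgeR unadjusted p of 0.136, and 25.5% of its exon bases lie opposite Gm26745. Psmd5 was at 16.2 and 14.9 CPM in WT and at 21.4 and 9.69 CPM in ZBP1-KO. Its WT libraries were close, and its ZBP1-KO libraries lay on either side of them, 1.14 apart on the log2 scale. The log2 fold change of Psmd5 was 0.0082 ± 0.36 (SE). The Psmg genes pair up to build the alpha ring. Psmg3, the member with the fewest counts among those tested, was at 5.71 and 5.05 CPM in WT and at 5.38 and 5.49 CPM in ZBP1-KO. Its 95% interval ran from -1.02 to 1.05, which leaves room for a 2-fold difference.

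This group holds the activators, which bind the ends of the 20S barrel, and an inhibitor of the proteasome. Psme1 and Psme2 encode the PA28 alpha and beta subunits, which are themselves induced by interferon gamma and lie close together on chromosome 14, Psme1 at chr14:55578123-55581529 on the plus strand and Psme2 at chr14:55587441-55591113 on the minus strand. Psme1 was at 78.5 and 79.4 CPM in WT and at 88.3 and 82.7 CPM in ZBP1-KO. Both ZBP1-KO libraries lay above WT, but the log2 fold change was 0.12 ± 0.18 (SE), with an interval of -0.28 to 0.51. Psme2 was at 33.7 and 45.5 CPM in WT and at 44.6 and 40.3 CPM in ZBP1-KO, and its groups overlapped at a log2 fold change of 0.10 ± 0.22 (SE). Its retrogene copy Psme2b matched it at 789 of 794 aligned transcript bases (99.4%), so the counts of both are uncertain. Psme2b was at 8.20 to 10.3 CPM across the libraries.

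Psme3, which encodes the nuclear activator PA28 gamma, was at 31.4 and 39.0 CPM in WT and at 34.4 and 30.9 CPM in ZBP1-KO. Psme4, which encodes the PA200 activator, was at 39.1 and 47.9 CPM in WT and at 42.5 and 39.3 CPM in ZBP1-KO. For both genes the groups overlapped, and the log2 fold changes were -0.11 ± 0.22 and -0.088 ± 0.21 (SE). Psmf1, which encodes the inhibitor PI31, was at 21.8 and 13 CPM in WT and at 16.0 and 8.83 CPM in ZBP1-KO. Replicate 1 was above replicate 2 in each genotype, by 0.75 and 0.86 on the log2 scale. The log2 fold change between genotypes was -0.47 ± 0.36 (SE). It ran from -0.98 without ZBP1-KO 1 to -0.058 without WT 1. The plot of fold changes sets all of these side by side.

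**Figure D2:**
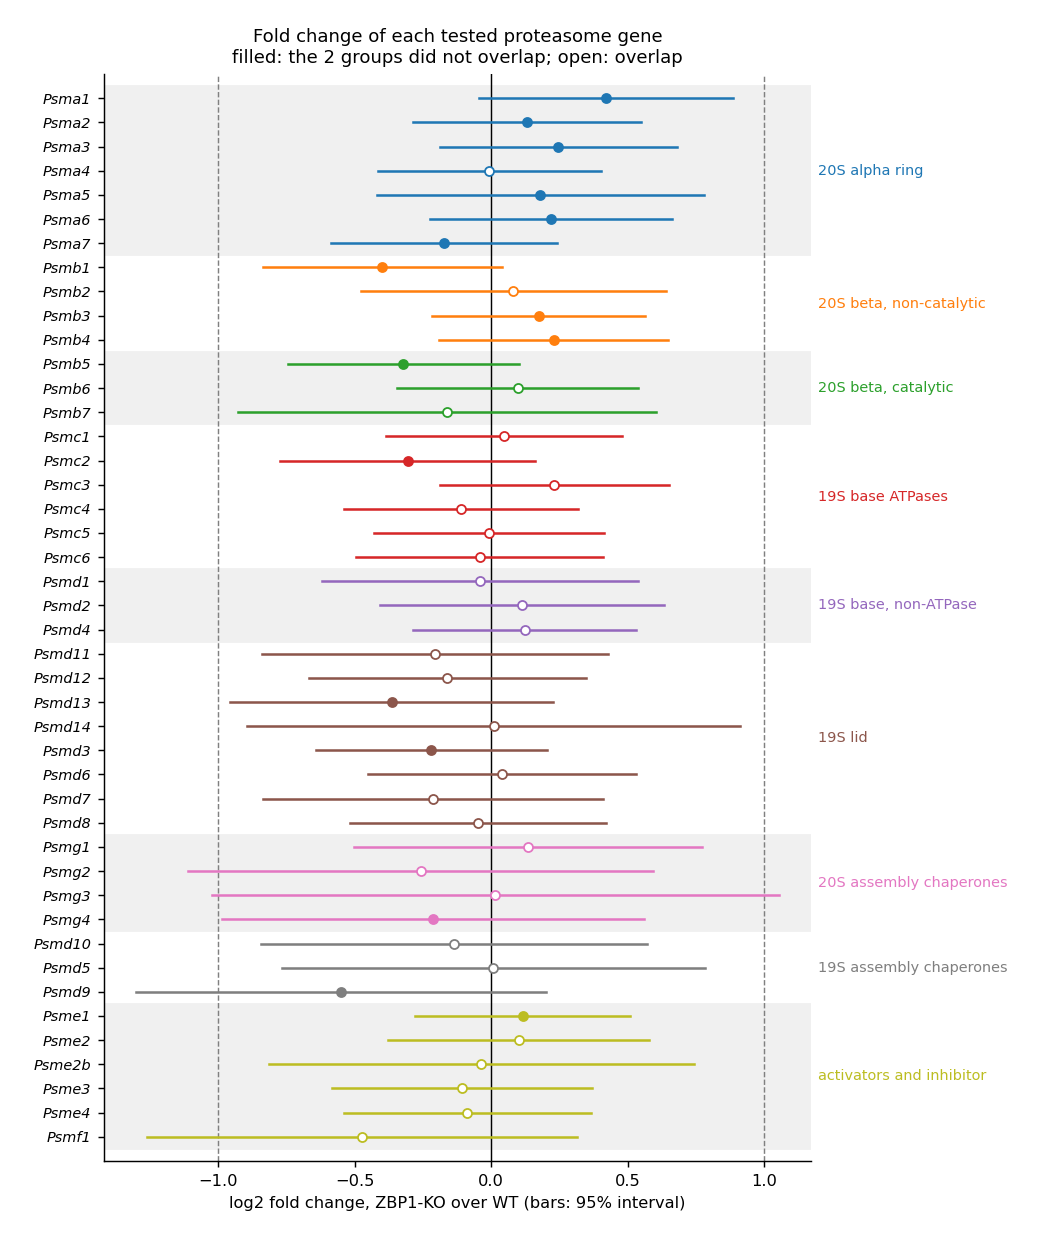
Log2 fold change (ZBP1-KO over WT) of the 44 tested proteasome genes with its 95% interval, grouped and coloured by role. Filled points mark the 16 genes whose groups did not overlap, dashed lines mark a 2-fold difference, and every interval includes 0.

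The filter on low counts removed 3 members. Psma8, which replaces an alpha subunit in testis, and Psmb11, the catalytic subunit of the thymus, had 0 counts in every library, which allows at most 0.221 to 0.323 CPM (3 counts per library, counting error only). Psmc3ip had 28 and 2 counts in WT and 4 and 7 counts in ZBP1-KO.

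Levels of different genes were compared per length, as CPM per kilobase of annotated exon averaged over the 4 libraries. The median over the 44 members was 11.5 CPM per kilobase. The highest members were Psmb5 at 53.7, Psmb6 at 51.1 and Psmc5 at 48.7 CPM per kilobase, and the lowest were Psmd9 at 1.31, Psmg3 at 1.87 and Psmd5 at 2.15. The highest level was 41.1 times the lowest. By role, the median level was 13.1 CPM per kilobase for the alpha ring, 33.1 for the beta ring, 11.1 for the 19S particle and 5.32 for the assembly chaperones. Within the base, the ATPases had a median of 25.4 and the non-ATPase subunits 15, and the lid stood at 10.5 CPM per kilobase. The order of single genes depended on the length used: per kilobase of the longest coding transcript, Psmb6 came first at 120 CPM per kilobase, Psmd5 came last at 3.54, and Psmb7 was at 10.5 in place of 3.57.

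**Figure D3:**
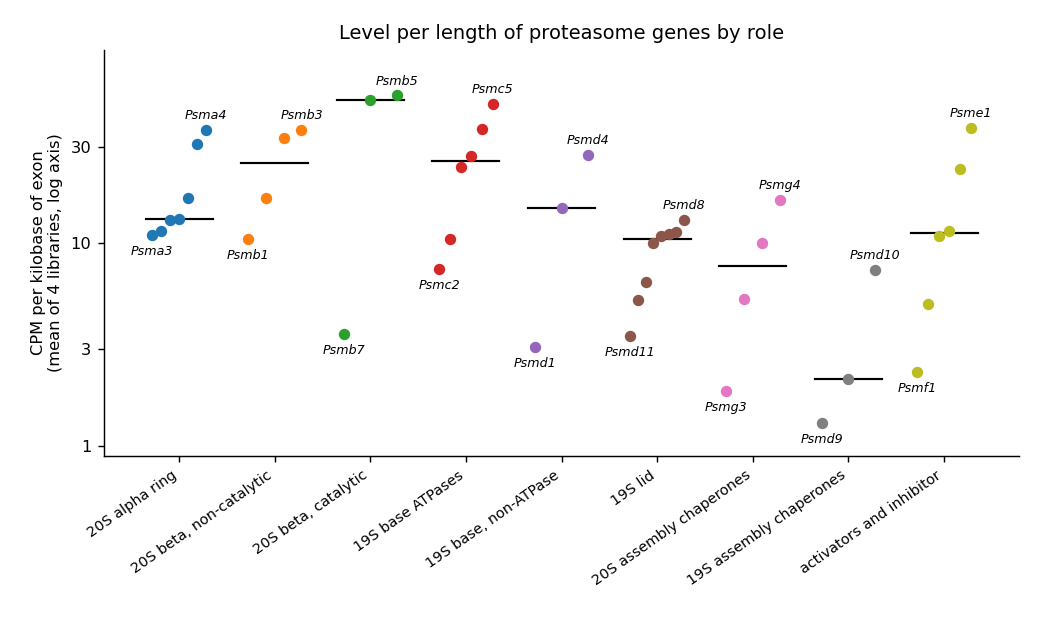
Level per length (CPM per kilobase of exon, mean of the 4 libraries, log axis) of each tested proteasome gene, grouped by role, with a black line at the median and the lowest and highest gene named. Psmb5 and Psmb6 stand at 53.7 and 51.1 while Psmb7 is at 3.57, and the chaperones Psmd9 and Psmg3 are the lowest.

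The inducible catalytic subunits, left out of the set, were set beside the constitutive ones. Psmb8 was at 22.6 and 28.8 CPM in WT and at 40.8 and 29.3 CPM in ZBP1-KO. Psmb9 was at 15.8 and 18.4 CPM in WT and at 29.9 and 24.1 CPM in ZBP1-KO, and Psmb10 was at 21.1 and 34.1 CPM in WT and at 49.2 and 40.7 CPM in ZBP1-KO. In each of the 3 both ZBP1-KO libraries lay above both WT libraries, as they did for 16.0% of all genes tested. The nearest libraries of Psmb8 were WT 2 and ZBP1-KO 2. The log2 fold changes were 0.45 ± 0.25, 0.66 ± 0.25 and 0.71 ± 0.26 (SE). With 1 library left out they ran from 0.18 (without ZBP1-KO 1) to 0.66 for Psmb8, from 0.49 to 0.80 for Psmb9, and from 0.39 (without WT 1) to 1.09 (without WT 2) for Psmb10. The edgeR unadjusted p-values were 0.091, 0.0207 and 0.0173, and all adjusted p-values were 0.999. Over all genes tested, 1.91% were higher in ZBP1-KO at an unadjusted p under 0.05.

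The ratio of each inducible subunit to the constitutive subunit it replaces was taken within each library, in CPM per kilobase of exon. Psmb8 over Psmb5 was 0.118 and 0.136 in WT and 0.251 and 0.184 in ZBP1-KO, 0.127 ± 0.0132 against 0.217 ± 0.0473 (SD, n = 2, exact permutation p = 0.33). Psmb10 over Psmb7 was 4.46 and 4.21 in WT and 9.84 and 6.27 in ZBP1-KO (exact permutation p = 0.33). Psmb9 over Psmb6 was 0.0785 and 0.114 in WT and 0.175 and 0.111 in ZBP1-KO, so its groups overlapped (exact permutation p = 0.667). The differences of the mean log2 ratios were 0.76, 0.86 and 0.56. With 2 libraries against 2, 0.33 is the smallest two-sided p the exact permutation test can give, so none of the 3 ratios could pass the threshold. The size of the Psmb10 over Psmb7 ratio depends on the exon length given to Psmb7: per kilobase of the longest coding transcript it was 1.96 and 1.86 in WT and 4.34 and 2.76 in ZBP1-KO.

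**Figure D4:**
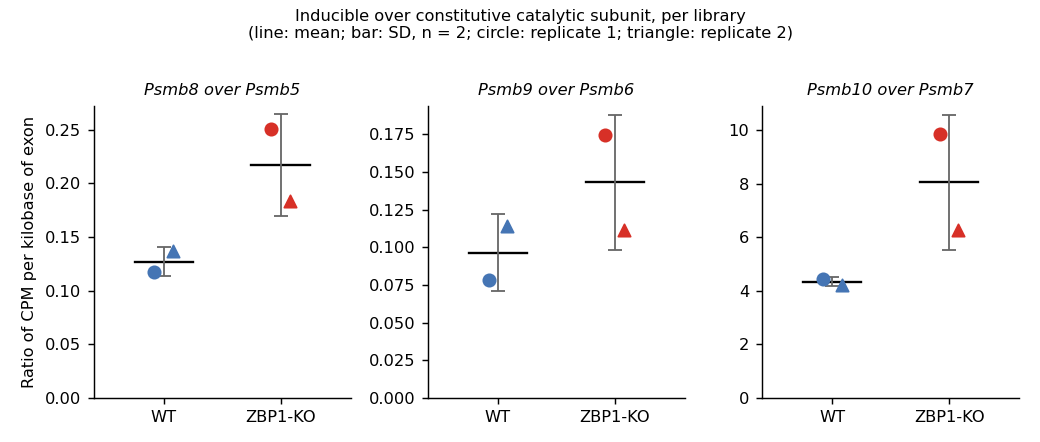
Ratio of each inducible catalytic subunit to its constitutive counterpart in each library, in CPM per kilobase of exon, with the mean (line) and SD (bar, n = 2). ZBP1-KO lies above WT in both libraries for Psmb8 over Psmb5 and Psmb10 over Psmb7, and Psmb9 over Psmb6 overlaps.

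Markers of other cells are given beside these values, since immune cells express the inducible subunits. Over all genes tested, 16.0% lay above WT in both ZBP1-KO libraries and 16.3% below. The marker counts given here also include markers that were not tested. The T cell markers summed to 10.5 and 7.78 CPM in WT and to 20.9 and 17.3 CPM in ZBP1-KO. Of these 8 markers, 3 lay above WT in both ZBP1-KO libraries and none was at 0. The general immune markers summed to 102 and 80.8 CPM in WT and to 133 and 98.8 CPM in ZBP1-KO (2 of 6 above, 1 below), and the macrophage markers to 367 and 243 CPM and to 352 and 346 CPM (3 of 7 above). B and plasma cell markers summed to 126 and 34.0 CPM in WT and to 49.4 and 62.3 CPM in ZBP1-KO. Of these 6 markers, 1 lay above and 2 below, and Cd79a and Ms4a1 were at 0 in at least 1 library. Of the kidney cell lists, 4 of 6 collecting duct markers lay below WT and 3 of 5 podocyte markers above, with none the other way. Of 10 proximal tubule markers 0 lay above and 1 below, and of 5 thick limb and distal tubule markers 1 and 1. Of 5 endothelial markers 1 lay above and 0 below, and of 5 stromal markers 0 and 0. Fat cell markers summed to 86.2 and 124 CPM in WT and to 271 and 246 CPM in ZBP1-KO. Of these 8 markers, 7 lay above WT, and Plin1 and Lep were at 0 in at least 1 library. The part of these cells in the values of the inducible or constitutive subunits was not tested. Among the fat cell markers, Cfd had an adjusted p under 0.05 in edgeR's quasi-likelihood test. It was 1 of the 2 genes called among all genes tested.

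The wider pathway showed no called gene either. Of 12 tested proteasome parts and partners under other symbols, 0 passed in each direction, with a median log2 fold change of 0.012. Pomp, the chaperone that completes the 20S core, was at 50.7 and 50.8 CPM in WT and at 48.5 and 38.2 CPM in ZBP1-KO. Adrm1, the ubiquitin receptor of the 19S particle, was at 35 and 35.1 CPM in WT and at 29.0 and 42.9 CPM in ZBP1-KO, and its groups overlapped. Of 14 regulators of proteasome genes, 0 passed, with a median of -0.12. Nfe2l1 was at 117 and 141 CPM in WT and at 120 and 110 CPM in ZBP1-KO, a log2 fold change of -0.16 ± 0.19 (SE).

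Of 20 tested genes that supply or deliver ubiquitin or trim peptides, 0 passed, with a median of 0.036. Ubb, a polyubiquitin gene, was at 409 and 389 CPM in WT and at 368 and 375 CPM in ZBP1-KO, with both ZBP1-KO libraries below WT at a log2 fold change of -0.10 ± 0.17 (SE). At an unadjusted p under 0.05, 1.91% of all genes tested were higher in ZBP1-KO. Thop1, a peptidase that cuts proteasome products, was the only gene of this list with an unadjusted p under 0.05 and was named for it. It was at 11.7 and 13.2 CPM in WT and at 17.8 and 21.5 CPM in ZBP1-KO, a log2 fold change of 0.66 ± 0.28 (SE), with an edgeR unadjusted p of 0.0351 and an adjusted p of 0.999. Of 8 genes listed for peptide loading on MHC class I, 0 passed, and the median was 0.27. The list includes the peptidase Erap1 and the regulator Nlrc5, which do not load peptides themselves. In both ZBP1-KO libraries 4 of the 8, Erap1, Calr, Pdia3 and Nlrc5, lay above WT and none below (16.0% and 16.3% of all genes tested). The groups of Tap1, Tap2, Tapbp and Canx overlapped, and each of these genes was highest in ZBP1-KO 1. Nlrc5, the transactivator of MHC class I genes, was singled out after its values were seen. It was at 9.81 and 12.8 CPM in WT and at 30.5 and 27.6 CPM in ZBP1-KO, a log2 fold change of 1.36 ± 0.26 (SE). Its edgeR quasi-likelihood adjusted p was 0.452 (0.0029 to 1.00 under the alternatives), and it was called with the exact test, the likelihood ratio test and the loosest filter on low counts.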

How the data were processed

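RNA was extracted with TRIzol from kidneys, polyadenylated RNA was enriched, and read pairs were sequenced. The authors trimmed reads with Trimmomatic, aligned them with HISAT2 to mm10 (per the submitters' processing notes) and used featureCounts to count the pairs that mapped uniquely to each gene. The files deposited by the authors hold these raw counts, as whole numbers per Ensembl gene, for 1 library each. Program versions, annotation release and whether counting used strand are not given in the sources used here, so overlapping genes and near-identical copies carry uncertain counts. Duplicate reads of 1 molecule could not be told apart.

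Of the 54532 identifiers, 54495 matched GENCODE M21 (GRCm38), which gave symbols, types, positions and exon lengths. Groups came from the sample titles. Counts were filtered (filterByExpr, minimum count 10, minimum total count 15), TMM-normalized and tested with the quasi-likelihood F test of edgeR 4.0.16 in R 4.3.3 (two-sided, genotype only), adjusted by Benjamini-Hochberg over 14908 genes, with a threshold of 0.05. Standard errors are those of the log2 fold change. Alternatives used DESeq2 1.42.0, limma 3.58.1 (voom), other edgeR tests, filters and scalings, a replicate block, and each library left out. The code was checked on simulated counts.

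Values in every library were given for the catalytic subunits, activators and inhibitor, the 8 smallest unadjusted p-values, the 3 highest and 3 lowest levels per length, and members below the filter. Other members named with values were chosen after their values were seen. The members, roles and lists were chosen with earlier results of these data known. Intervals and limits cover 2 libraries per group, and a limit for 0 counts covers counting error only.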

Additional observations from a re-analysis of the deposited data

How the results depend on the processing

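No proteasome gene was called under any alternative. The smallest adjusted p of a member was 0.453 (Psmd14) without ZBP1-KO replicate 2 and 0.560 (Psmf1) without ZBP1-KO replicate 1, where the lone library of an arm is assumed to vary like the other group. The number of genes called among all genes was 2, and it became 41 with all genes that have at least 1 count, 11 with a replicate block, 14 with the exact test, 26 with the likelihood ratio test, 9 with DESeq2, 8 with limma-voom, 4 without mitochondrially encoded genes, and 0 to 37 with 1 library left out. The libraries share only a number between genotypes (the correlation of same-numbered libraries' deviations was 0.0040), and the replicate block called no member. With all genes that have at least 1 count the alpha-ring median was 0.17. From the peptide-loading list, 1 gene (Nlrc5) was called under that filter, the likelihood ratio test and the exact test. So was Zbp1, at log2 fold changes of -3.65, -3.67 and -3.67. Log2 fold changes near 0 changed sign: Psmc5 to 0.0013 and Adrm1 to -0.019 with limma-voom, and Psmd5 to -0.0014 with all genes that have at least 1 count, -0.091 with the replicate block and -0.021 with limma-voom. Per kilobase of the longest coding transcript, the median levels were 32.3 for the alpha ring, 53.7 for the beta ring and 20.2 for the 19S particle. The causes of these shifts were not tested.

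With 1 library left out in turn, 0 to 1 members were higher and 0 to 2 lower at an unadjusted p under 0.05, 12 to 16 members (27.3% to 36.4%) lay above and 13 to 19 (29.5% to 43.2%) below the other genotype, beside 28.7% to 34.9% and 31.5% to 36.0% of all genes in the same fits, and the median over members ran from -0.058 to 0.044. The medians by role ran from 0.14 to 0.19 for the alpha ring, 0.019 to 0.16 for the non-catalytic and -0.40 to 0.013 for the catalytic beta subunits, 0.012 to 0.15 for the 20S core, -0.077 to 0.0011 for the base ATPases, -0.12 to 0.11 for the other base subunits, -0.26 to -0.11 for the lid, -0.17 to 0.034 for the 19S particle, -0.52 to -0.014 for the 19S chaperones, -0.12 to 0.035 for the 20S chaperones, -0.20 to 0.027 for all chaperones and -0.15 to 0.089 for the activators and inhibitor. Among the genes given with their own log2 fold change, the sign turned for Psmb6 (-0.089 to 0.26), Psmb7 (-0.51 to 0.27), Psme2 (-0.11 to 0.33), Psme3 (-0.26 to 0.050), Psme4 (-0.24 to 0.059), Psmc5 (-0.17 to 0.15), Psmg3 (-0.077 to 0.10), Psmd5 (-0.69 to 0.45), Psmd14 (-0.91 to 0.57) and Adrm1 (-0.28 to 0.29). The log2 differences of the inducible to constitutive ratios stayed above 0, at 0.54 to 0.98 for Psmb8 over Psmb5, 0.23 to 0.88 for Psmb9 over Psmb6 and 0.53 to 1.18 for Psmb10 over Psmb7.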
